A study of Mus musculus with 5 samples.

Results

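Gr1+ granulocytes of mouse bone marrow were set beside control KSL cells. KSL cells are the c-Kit+, Sca-1+ and lineage-negative marrow cells among which blood stem cells and early progenitors are found. The granulocyte profile was the mean FPKM (fragments per kilobase of transcript, scaled to sequencing depth) of 2 libraries, the KSL profile was the FPKM of 1 library, and genes were joined by identical symbol. These are 3 of the 5 libraries analysed and 2 biological samples, because both granulocyte libraries are technical replicates of 1 biological replicate. The tables shared 34309 symbols, of which 17490 were named genes, and the 10370 named genes that reached 1 FPKM in at least 1 of both profiles were ranked.

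The granulocytes were Gr1+ primary cells, sorted by flow cytometry from bone marrow of C57BL/6 mice aged 12 months, with no treatment given in the labels. The KSL cells also came from C57BL/6 mice, whose age the labels do not give. Those mice had been injected with 5-fluorouracil (5-FU), a drug that kills dividing blood cells, and their Sca-1+ cells were transduced with a knockdown control retrovirus. After 2 days in culture with 10 ng/ml mouse stem cell factor and 100 ng/ml mouse thrombopoietin, the c-Kit+, Sca-1+, Lin-, GFP+ cells were sorted. The other 2 libraries, KSL cells carrying LncHSC-1 or LncHSC-2 knockdown viruses, served only as a scale for variation between libraries. RNA was polyA-selected and prepared with the same kits in all of them. Cell type cannot be told apart here from age, 5-FU, virus, culture or experiment, and with n = 1 biological sample per group there was no test of any difference.

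As background, granulocytes arise from stem cells through myeloblast, promyelocyte, myelocyte and metamyelocyte stages. Their granules are filled in order: primary granule proteins are made in promyelocytes, and secondary and tertiary granule proteins later. Division stops after the myelocyte stage, and the mature neutrophil carries receptors for bacterial products and chemokines, an oxidase that makes superoxide, and a motile actin cortex. Stem and progenitor cells instead keep a network of GATA, HOX and MYC family transcription factors and can enter the cell cycle when given cytokines.

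FPKM values of the 2 sources rest on different divisors, so each gene was placed by its rank within its own profile. The rank percentile runs to 100 for the highest gene, and a gene was called different where the percentiles differed by at least 25 points. Among the ranked genes, 1792 lay at least 25 points higher in granulocytes (17.3% of genes) and 1879 lay at least 25 points higher in control KSL cells (18.1%). The median difference over all ranked genes was −2.3 points, granulocytes minus KSL, against which the medians of gene lists are read. Counts of list members are read against the 17.3% and 18.1% of all ranked genes. Past 50 points there were 580 and 367 genes, while 3335 genes (32.2%) lay within 10 points. Genes at the edge of the rule were Mitf at 25 and Pex5 at 25.01 points just inside it, and Capn11 and Stam2 at 24.99 points just outside. At the other edge Mrpl34 lay at −25.01 and Wiz at −24.99 points, as granulocytes minus KSL.

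These differences were far larger than those between libraries of 1 population. The technical replicates of the granulocyte sample differed with an SD of 1.49 points over 8209 genes, and 0 of them passed 25 points (0% of genes). The control KSL library differed from the LncHSC-1 library with an SD of 2.86 points and from the LncHSC-2 library with an SD of 2.24 points. In these 2 comparisons 1 gene each passed 25 points (0.00995% and 0.0100% of genes), Pou2af1 and 7SK.292. Granulocytes against control KSL cells had an SD of 29.4 points, and the rank correlation across the 10370 genes was 0.481, a description of 2 profiles whose genes are not independent replicates. It depended on the floor, at 0.291 with a floor of 5 FPKM, 0.355 with the floor in both profiles and 0.843 without one.

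**Figure D1:**
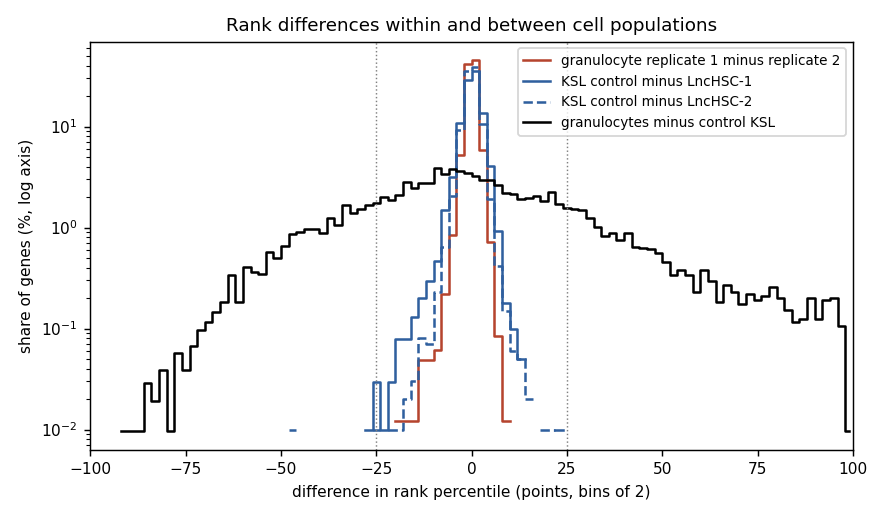
Share of genes (%, log axis) by difference in rank percentile (points, bins of 2) for technical replicates of the granulocyte sample, for pairs of KSL libraries, and for granulocytes minus control KSL; dotted lines mark 25 points either way. The within-population curves (SD 1.49 to 2.86 points) stay close to 0, and the curve between populations (SD 29.4 points) spreads over most of the axis.

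The granulocyte markers all ranked higher in granulocytes than in control KSL cells. S100a8 (chromosome 3, 90472993 to 90473956, mm9) stood at 55377 and 57405 FPKM in the technical replicates and at 42.5 FPKM in control KSL cells, rank 2 against rank 1952. S100a9 (chromosome 3, 90496555 to 90499613) stood at 60165 and 61249 FPKM beside 36.6 FPKM, rank 1 against 2293. Ltf, the iron-binding lactoferrin of secondary granules (chromosome 9, 110921796 to 110945270), stood at 4903 and 4888 FPKM beside 2.52 FPKM, rank 9 against 8972. The 2 granulocyte libraries, technical replicates of 1 sample, agreed closely in these 3 genes.

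The progenitor markers lay the other way. Kit, the stem cell factor receptor (chromosome 5, 75971012 to 76052746), stood at 5.55 and 5.72 FPKM in granulocytes and at 67.6 FPKM in control KSL cells, rank 4993 against 1127. Ly6a, the Sca-1 antigen used in the sort (chromosome 15, 74825307 to 74828318), stood at 2.26 and 2.09 beside 1010 FPKM, rank 6889 against 36. Cd34 (chromosome 1, 196765015 to 196787486) stood at 0.834 and 1.04 beside 229 FPKM, rank 8216 against 207. Kit was therefore low but not absent in the Gr1+ sample, where it held a place near the middle of the ranking. Kit and Ly6a products were also sorting markers of the KSL cells, so the sort selected for them.

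The Gr1 antibody recognises Ly6G and, more weakly, Ly6C, and the genes of that cluster on chromosome 15 split. Ly6g stood at 494 and 517 FPKM in granulocytes and at 0.677 FPKM in control KSL cells, a value that rests on 3 reads (exact Poisson 95% interval 0.619 to 8.77 reads, counting error only). Ly6c2 stood at 504 and 517 beside 32.5 FPKM, rank 60 against 2576, and its KSL value was 101 FPKM in the LncHSC-1 library. Ly6c1, by contrast, stood at 0.622 and 0.744 FPKM beside 7.73 FPKM. Ly6e was high in both, at 77.5 and 77.4 FPKM beside 1124 FPKM, rank 568 against 31. Ly6 genes resemble each other, and how the authors' counting split shared reads is not stated.

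**Figure D2:**
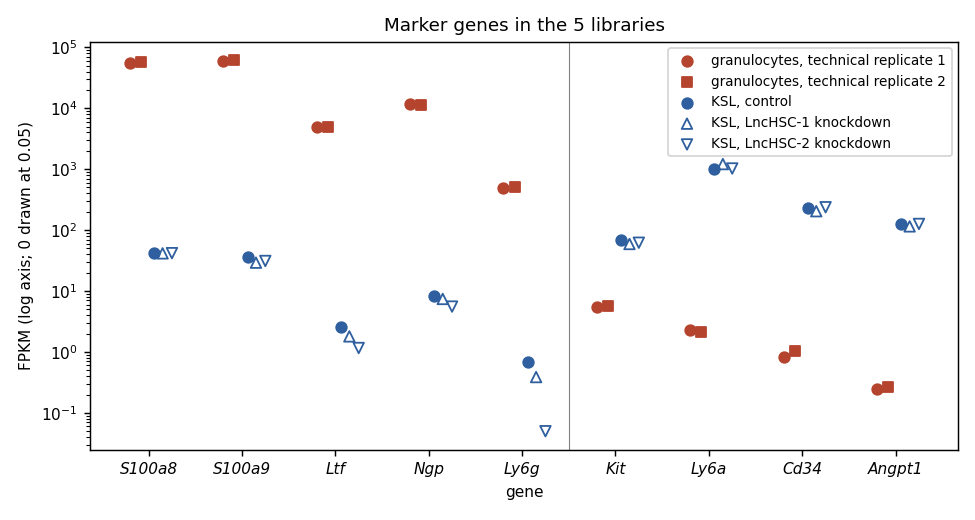
FPKM (log axis, a value of 0 drawn at 0.05) of 9 marker genes in each of the 5 libraries; red points are the technical replicates of granulocytes, blue points the KSL libraries. S100a8, S100a9, Ltf, Ngp and Ly6g lie higher in both granulocyte libraries than in every KSL library, and Kit, Ly6a, Cd34 and Angpt1 lie lower. The genes were preset or taken from the highest or widest, so this is no test, and the divisors of the 2 sources differ.

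A few genes filled much of the granulocyte profile. S100a9 and S100a8, whose products pair as calprotectin and bind calcium, zinc and manganese, together held 28.9% of all FPKM of ranked genes, at 28.6% and 29.2% in the replicates. The 2 highest genes of control KSL cells, Eef1a1 and B2m, held 2.21%. The 12 highest granulocyte genes held 43.8% and the 100 highest 58.2%, beside 7.22% and 25.1% in control KSL cells. From the count columns, not divided by length, the shares of the 100 highest were 33.1% and 14.1%, and for genes with lengths within 1.2-fold between the tables they were 38.2% and 21.4%; that filter leaves out S100a8 and S100a9, with length ratios of 1.58 and 1.39. Of the summed FPKM, 50% was reached by 33 genes in granulocytes (34 and 32 in the replicates) and by 666 genes in control KSL cells (657 and 628 in the knockdown libraries).

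The median ranked gene stood at 5.16 FPKM in granulocytes and 14.2 FPKM in control KSL cells, and the gene at percentile 95 at 82.4 and 119 FPKM. Of the ranked genes, 7651 reached 1 FPKM in both profiles, 474 in granulocytes only and 2245 in control KSL cells only. These counts depend on the divisor and on how much of the library the top genes took, so they are not counts of genes switched on or off. In bulk RNA, fewer cells with a transcript and less of it per cell cannot be told apart.

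**Figure D3:**
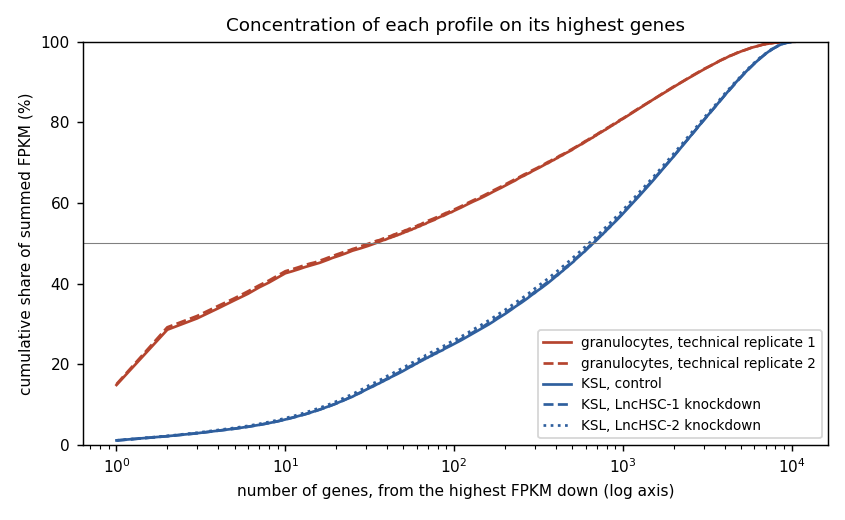
Cumulative share of summed FPKM (%) against the number of genes taken from the highest down (log axis) for the 2 granulocyte replicates and the 3 KSL libraries; the grey line marks 50%. The granulocyte curves cross it at 34 and 32 genes, the control KSL curve at 666.

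The 12 highest granulocyte genes were, in order, S100a9, S100a8, Ngp, Retnlg, Lyz2, Tmsb4x, Lcn2, Camp, Ltf, Actb, Mmp9 and Anxa1. Ngp encodes a cathelicidin-like granule protein, Camp the cathelicidin precursor, Lcn2 the siderophore-binding lipocalin, Retnlg a resistin-like secreted protein and Lyz2 lysozyme. Ngp stood at 11526 and 11352 FPKM beside 8.13 FPKM in control KSL cells, and Lcn2 at 6348 and 6340 beside 6.39 FPKM. Camp stood at 5052 and 5014 beside 1.89 FPKM. Retnlg stood at 10001 and 10093 beside 3.62 FPKM, which rests on 41 reads. Tmsb4x and Actb, which encode the actin-binding thymosin beta 4 and beta-actin, were high in both profiles, at ranks 22 and 43 in control KSL cells.

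The top of the KSL profile belonged to protein synthesis. Its 12 highest genes comprised Eef1a1, which encodes the elongation factor that brings tRNA to the ribosome, B2m, the light chain of MHC class I, and 10 ribosomal protein genes, among them Rpl32, Rplp1, Rpl4, Rps15, Rpl39, Rps9, Rps21 and Rps4x. Eef1a1 stood at 4470 FPKM and B2m at 4024 FPKM, and they kept ranks 82 and 32 in granulocytes. The 500 highest genes of the profiles shared 125 members, 25% of each list, and the 100 highest shared 16.

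Of the 500 highest granulocyte genes, 241 ranked below 2000 in control KSL cells (2.32% of ranked genes). The first of them were S100a9, Ngp, Retnlg, Lcn2, Camp, Ltf, Mmp9, Mmp8, Chi3l3 and Tyrobp. In the other direction 189 genes met the rule (1.82%), led by Npm1, Ly6a, the merged feature of Serpina3f and Serpina3g, Bst2, Rpl35, Rpl14, Rps27l, Nme2 and Hint1. The tenth of these was a merged immunoglobulin heavy chain feature, whose length in the granulocyte table was 46.3 times that implied in the KSL table, so its ranks are not comparable. Npm1, which encodes the nucleolar chaperone nucleophosmin, stood at 17.4 and 16.6 FPKM beside 1290 FPKM, rank 2526 against 25.

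The 12 widest shifts toward granulocytes were in Stfa2l1, Lrg1, Itgb2l, Mmp9, Cd177, Mmp25, Olfm4, Il1f9, Plbd1, Cxcr2, Pram1 and H2-Q10, at 96.0 to 98.7 points. Stfa2l1, which encodes a stefin-like protease inhibitor, stood at 317 and 320 FPKM and had 0 reads in the control KSL library. A floor of 3 reads would place it at 0.308 FPKM there, rank 10107. Cxcr2, the receptor for the neutrophil-attracting chemokines, stood at 552 and 550 FPKM beside 0.561 FPKM. Cd177, a surface glycoprotein of neutrophils, stood at 988 and 979 beside 0.510 FPKM. All 12 were among the 266 highest genes of the granulocyte profile and had at most 41 reads in the control KSL library.

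The 12 widest shifts toward KSL cells were in Myl10, Ifi44, Pf4, Ppic, Angpt1, Muc13, the merged Serpina3f and Serpina3g feature, Mycn, Tspan4, Rab38, Iigp1 and Fads2. Angpt1, the ligand of the Tie2 receptor (chromosome 15, 42256271 to 42508341), stood at 0.251 and 0.261 FPKM in granulocytes beside 125 FPKM. Mycn, the MYC family transcription factor, stood at 0.00771 and 0.0231 beside 51.3 FPKM. Ifi44 and Iigp1 are interferon-induced genes and stood at 113 and 57.2 FPKM in control KSL cells. Myl10, a myosin light chain gene, stood at 0.0229 and 0.114 beside 125 FPKM, and at 114 and 131 FPKM in the knockdown libraries.

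The secondary and tertiary granule list differed from the primary granule list. The secondary and tertiary list is broad: Hk3 and Ltb4r1 are also in the glycolysis and chemoattractant receptor lists, and not every member encodes a granule protein. Of 25 listed secondary and tertiary granule genes, 24 were ranked, and 23 of them lay at least 25 points higher in granulocytes (17.3% of all ranked genes), with a median percentile of 99.7 beside 12.9. The remaining one, Anxa1, which encodes the anti-inflammatory annexin A1, was high in both (1994 and 51.4 FPKM). The list held 12.8% of summed FPKM in granulocytes and 0.0477% in control KSL cells. Mmp9 and Mmp8, the gelatinase and collagenase of granules, stood at 2097 and 1909 FPKM beside 0.450 and 1.98 FPKM. Members were chosen because they are known in neutrophils, so this direction is a check of the sample.

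Most primary granule genes were present at similar ranks in both profiles. All 10 listed genes were ranked, and 2 lay at least 25 points higher in granulocytes (20% of the list, near the 17.3% of all ranked genes) and 0 in control KSL cells, and the list held 0.225% and 0.333% of summed FPKM. Mpo, the myeloperoxidase gene, stood at 62.0 and 61.3 FPKM beside 61.9 FPKM, rank 730 against 1261. Prtn3, proteinase 3, stood at 40.2 beside 98.4 FPKM, and Ctsg, cathepsin G, at 17.2 beside 50.4 FPKM. Srgn and Cd63 of this list ranked high in both, at 77 and 385 in granulocytes and 51 and 227 in control KSL cells. The 2 higher genes were Elane, neutrophil elastase, with 60.3 and 64.5 beside 9.0 FPKM, rank 718 against 6552, and the serine protease gene Prss57, with 4.77 beside 3.36 FPKM, rank 5339 against 8610. Within granulocytes the median rank was 944 for the primary list and 36 for the secondary and tertiary list.

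Windows of granule gene promoters with a C/EBP motif are shown because these genes moved together and C/EBP epsilon is the textbook regulator of secondary granule genes. They come from RefSeq promoters on build GRCm38.p6, 250 bases before to 50 after the gene start, and capitals mark the motif TTGCNNAA or its reverse complement TTNNGCAA. 
Ltf (chr9:111019206-111019235, plus strand): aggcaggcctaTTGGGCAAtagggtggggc
Ngp (chr9:110419659-110419688, plus strand): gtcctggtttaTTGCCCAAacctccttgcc
Lcn2 (chr2:32387937-32387966, minus strand): agcccttcctgTTGCTCAAccttgcacagt
Mmp8 (chr9:7558399-7558428, plus strand): ttaggcagaagTTGCTCAAgatgtagcttt

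The motif began 75 bases before the start of Ltf, 138 before Ngp, 216 before Lcn2 and 19 before Mmp8. Counting both strands, it was in 8 of the 20 listed secondary and tertiary granule genes with a promoter sequence (40.0%) and in 10.2% of all 7925 ranked genes with one. It was in 13.1% of the genes 25 points higher in granulocytes and in 9.34% of those 25 points higher in control KSL cells. GAGGAAGT, a PU.1-type motif, was in 3 of the 20 granule genes (15.0%) and 4.14% of all ranked genes. It was also in 3 of 24 ribosome biogenesis genes (12.5%) and 1 of 30 DNA replication genes (3.33%), lists that lay toward KSL cells. A match describes these letters and is neither a bound site nor a cause.

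Receptors by which neutrophils sense microbes and injury lay high in granulocytes. Of 17 listed chemoattractant receptors, 14 were ranked, with a median percentile of 94.4 beside 4.74. Of these, 11 lay at least 25 points higher in granulocytes (78.6%, beside 17.3% of all ranked genes) and 0 in control KSL cells. The formyl peptide receptors Fpr1 and Fpr2 stood at 291 and 424 FPKM beside 0.917 and 1.08 FPKM, and the C5a receptor C5ar1 at 168 beside 0.629 FPKM. Ccr1 stood at 209 beside 0.650 FPKM. Cxcr4, the receptor for the marrow retention signal CXCL12, was ranked in both, at 232 beside 30.1 FPKM. The other 3 listed receptors were under 1 FPKM in both profiles and were not ranked.

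Pattern recognition genes followed the same direction in 22 of 29 members (75.9%, beside 17.3% of all ranked genes), with 0 the other way. Their median difference was 56.5 points. The C-type lectin receptor Clec7a, dectin-1, stood at 166 beside 0.224 FPKM, and the amplifying receptors Trem1 and Trem3 at 87.0 and 211 beside 0.624 and 0.664 FPKM. Tyrobp, their signalling adaptor, stood at 1568 and 1583 beside 29.6 FPKM. Tlr3, the sensor of double-stranded RNA, was low in both profiles at 0.104 and 1.26 FPKM, and Irak1 lay lower in granulocytes, at 13.1 beside 53.5 FPKM. In the inflammasome and interleukin-1 list 8 of 13 ranked members lay higher (61.5%, beside the same 17.3%) and 0 lower. Il1b stood at 410 and 408 beside 1.59 FPKM and its natural antagonist Il1rn at 86.9 beside 0.306 FPKM, while Casp1, the protease that cuts pro-interleukin-1 beta, differed little at 27.9 beside 43.8 FPKM.

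Fc receptor and complement genes lay higher in 8 of 14 members (57.1%, beside 17.3% of all ranked genes). They were led by C5ar1, C3 (256 beside 2.17 FPKM) and Fcgr4 (83.6 beside 1.49 FPKM). Myeloid cytokine receptors lay higher in 15 of 19 members (78.9%, beside the same 17.3%) and lower in 0. Csf3r, the receptor of the granulocyte growth factor G-CSF, stood at 807 and 797 beside 25.5 FPKM, rank 33 against 3297. Csf1r, the receptor of the macrophage factor, stood at 58.7 and 56.8 beside 2.24 FPKM. Il3ra and Ifnar2 did not reach 25 points.

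Of 8 NADPH oxidase genes, 3 lay at least 25 points higher in granulocytes (37.5%, beside 17.3% of all ranked genes) and 0 in control KSL cells. Cybb, the catalytic gp91phox subunit, stood at 449 and 451 beside 7.29 FPKM, rank 72 against 7121, and the cytosolic subunit Ncf1 at 681 beside 28.9 FPKM. Cyba, the membrane partner of Cybb, and the GTPase gene Rac2 ranked high in both, at 57 and 52 in granulocytes and 654 and 782 in control KSL cells. Among 35 actin and motility genes only Gsn, the filament-severing gelsolin, passed 25 points (238 beside 13.7 FPKM). Their median percentile was 98.5 beside 95.3, and they held 5.48% of summed FPKM in granulocytes and 2.11% in control KSL cells.

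Leukotriene and prostaglandin genes lay higher in granulocytes in 5 of 13 ranked members (38.5%, beside 17.3% of all ranked genes). They lay higher in control KSL cells in 2 (15.4%, near 18.1%). Of the 5, Alox15, Ptgs2, Ptges and Hpgd were under 1 FPKM in control KSL cells, so they were ranked through granulocytes alone. With a floor of 5 FPKM the median difference of the list went from 16.4 to 2.3 points, over 9 genes. Pla2g7, which degrades platelet-activating factor, stood at 162 beside 3.22 FPKM, and Alox5ap, the partner of 5-lipoxygenase, ranked high in both, 31 and 225. Adhesion genes were mixed, with 5 of 20 members higher in granulocytes and 3 higher in control KSL cells. The beta-2 integrin subunits Itgam, Itgal and Itgb2 stood at 614, 152 and 740 FPKM beside 4.65, 14.6 and 17.4 FPKM. Itga6, Icam2 and Pecam1 lay the other way, at 2.88, 5.04 and 2.67 FPKM beside 47.2, 46.5 and 26.5 FPKM. Lysosome genes moved little, with 5 of 28 ranked members higher (17.9%, near the 17.3% of all ranked genes), 1 lower and a median difference of 5.4 points. In the S100 family only S100a1 passed 25 points, toward KSL cells, at 5.08 beside 60.5 FPKM. S100a8 and S100a9 differed by less than 25 points because their KSL ranks of 1952 and 2293 were already high, and the KSL table divided both by shorter lengths (ratios of implied lengths 1.58 and 1.39).

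**Figure D4:**
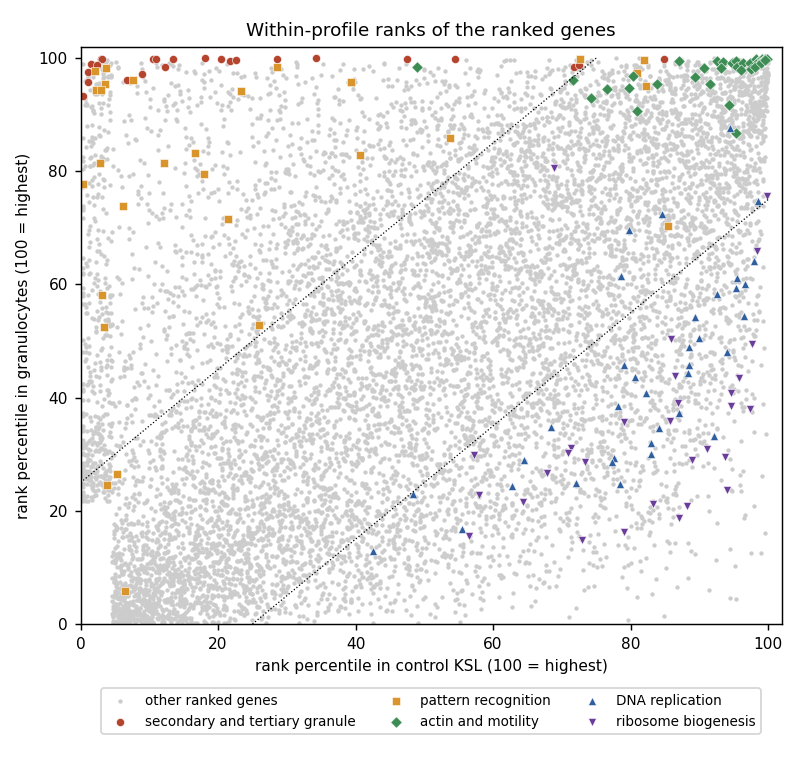
Rank percentile of the 10370 ranked genes in granulocytes (vertical) and in control KSL cells (horizontal), 100 being the highest, with 5 gene lists in colour and dotted lines 25 points from equality. Granule genes lie along the upper edge, actin genes in the upper right corner, and DNA replication and ribosome biogenesis genes in the lower right; the empty corner at lower left holds genes under 1 FPKM in both, which were not ranked.

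Most myeloid transcription factors ranked higher in granulocytes. Of 25 ranked myeloid factors, 17 lay at least 25 points higher in granulocytes (68.0%, beside 17.3% of all ranked genes) and 0 in control KSL cells. Cebpe stood at 83.0 and 81.6 beside 0.403 FPKM, Cebpd at 53.4 beside 0.785 FPKM and Cebpb at 48.5 beside 6.14 FPKM. Cebpa, which acts earlier in the lineage, stood lower at 9.97 and 9.68 beside 0.668 FPKM and at 0 in both knockdown libraries. Id1, an inhibitor of helix-loop-helix factors, was the member that lay furthest the other way, at 10.2 beside 43.0 FPKM.

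MYC family genes and their antagonist Mxd1 lay on opposite sides. Mxd1, which encodes a repressor that competes with MYC for its partner MAX, stood at 401 and 399 beside 3.51 FPKM, rank 83 against 8541. Myc stood at 1.16 and 1.14 beside 139 FPKM, rank 7934 against 408, and Mycn was named above at rank 10223 against 1577. The values of Myc in the knockdown libraries were 137 and 135 FPKM.

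Of 35 stem and progenitor transcription factors, 18 lay at least 25 points higher in control KSL cells (18.1% of all ranked genes) and 0 higher in granulocytes. Gata2 stood at 1.06 and 1.12 beside 78.6 FPKM, Meis1, a HOX cofactor, at 0.248 beside 38.9 FPKM and Gfi1b at 0.468 beside 56.1 FPKM. Lmo2, an adaptor of the stem cell complex, had the highest KSL level of the list at 347 FPKM, rank 111, and kept 24.0 FPKM and rank 1876 in granulocytes. Runx2 and Hoxb4 ranked higher in granulocytes by under 25 points. Hoxb4 was low in both, at 2.89 beside 2.64 FPKM.

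Stem and progenitor surface genes lay higher in control KSL cells in 16 of 24 ranked members (66.7%, beside 18.1% of all ranked genes). Their median difference was −41.7 points. Eng stood at 0.377 beside 53.9 FPKM and Gpr56 at 1.36 beside 386 FPKM. Prom1 and Alcam were the exceptions, at 11.5 and 11.8 FPKM in granulocytes beside 0.0790 and 4.39 FPKM. The tetraspanin gene Cd9 ranked high in both, 137 and 323.

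Cell cycle genes lay higher in control KSL cells, and replication genes more so than mitotic ones. Of 36 DNA replication genes, 31 lay at least 25 points higher in control KSL cells (86.1%, beside 18.1% of all ranked genes) and 0 in granulocytes. Their median percentile was 44.0 beside 83.6. Pcna, the sliding clamp, stood at 16.3 beside 278 FPKM, the helicase subunit Mcm6 at 10.2 and 10.0 beside 229 FPKM and Dut at 2.15 beside 86.2 FPKM. Of 34 mitotic genes, 14 met the rule toward KSL cells (41.2%, beside the same 18.1%) and 0 toward granulocytes. Their median difference was −23.2 points, beside −38.6 points for replication. Mki67, the proliferation antigen, held nearly the same rank in both, 1319 and 1137, at 34.6 and 35.4 beside 67.3 FPKM. Birc5, survivin, stood at 4.48 beside 110 FPKM, and Kif23 ranked 11.5 points higher in granulocytes.

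G1 control genes differed among themselves. Cdk4 stood at 6.41 and 6.94 beside 298 FPKM, and Cdk6, Ccnd1 and Ccnd2 lay the same way, at 2.25, 0.599 and 4.05 FPKM beside 53.5, 27.0 and 84.2 FPKM. The CDK inhibitor gene Cdkn1a stood at 0.925 beside 58.1 FPKM, while Cdkn1b, p27, stood at 37.4 beside 16.1 FPKM. E2f2 was the member furthest toward granulocytes, at 53.6 and 52.4 beside 4.15 FPKM, rank 863 against 8243. In total 7 of 20 ranked members lay higher in control KSL cells (35.0%, beside 18.1% of all ranked genes) and 2 in granulocytes (10.0%, beside 17.3%).

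E2F motifs in promoters of the replication list are shown because E2F factors are the textbook regulators of these genes. Capitals mark TTTGGCGC, TTTCCCGC or their reverse complements GCGCCAAA and GCGGGAAA, in RefSeq sequence on GRCm38.p6. 
Mcm6 (chr1:128359734-128359763, minus strand): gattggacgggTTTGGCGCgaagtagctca
Pola1 (chrX:93632275-93632304, minus strand): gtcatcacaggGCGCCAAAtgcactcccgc
Cdc6 (chr11:98908002-98908031, plus strand): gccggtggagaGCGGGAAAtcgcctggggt

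One of these motifs was in 9 of the 30 replication genes with a promoter sequence (30.0%) and in 3.66% of all ranked genes with one. It was in 1.55% of the genes 25 points higher in granulocytes and in 5.48% of those 25 points higher in control KSL cells. None of the 20 granule genes had it, a count of 0. The E-box CACGTG, the site type of MYC and MAX, was in 12.2% of all ranked genes, 11.4% of the genes higher in granulocytes, 15.5% of those higher in control KSL cells and 6 of 24 ribosome biogenesis genes (25%).

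Ribosome production and biosynthesis were among the groups furthest toward KSL cells. Of 30 ribosome biogenesis genes, 28 lay at least 25 points higher there (93.3%, beside 18.1% of all ranked genes) and 0 in granulocytes. Their median percentile was 30.6 beside 86.2. Gnl3, nucleostemin, stood at 1.16 beside 106 FPKM, and Fbl, the nucleolar methyltransferase fibrillarin, at 0.939 beside 63.7 FPKM. Polr1a, the largest subunit of RNA polymerase I, was the exception at 22.0 beside 26.1 FPKM and ranked 11.6 points higher in granulocytes. Of 20 aminoacyl-tRNA synthetase genes, 13 met the rule toward KSL cells (65.0%), and of 28 ranked splicing genes, 13 (46.4%).

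Of 22 one-carbon and nucleotide synthesis genes, 21 lay at least 25 points higher in control KSL cells (95.5%, beside 18.1% of all ranked genes). Their median difference of −52.4 points was the widest of the 44 lists toward KSL cells. Phgdh, the first enzyme of serine synthesis, stood at 0.958 and 1.34 beside 115 FPKM, and the mitochondrial Shmt2 at 1.84 beside 107 FPKM. Adss alone stayed within 25 points, at 21.0 beside 60.4 FPKM. Cholesterol and fatty acid synthesis genes met the rule toward KSL cells in 10 of 22 ranked members (45.5%), with Fasn at 0.840 beside 42.2 FPKM.

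Cytoplasmic ribosomal protein genes held 13.5% of summed FPKM in control KSL cells and 1.02% in granulocytes, with a median rank of 84 beside 1378. The percentile rule called 11 of 78 ranked members higher in control KSL cells (14.1%, below the 18.1% of all ranked genes). It called 1 higher in granulocytes (1.28%, below 17.3%), since most were high in both. A set of them was low in both profiles. Rps12 stood at 4.41 and 5.59 beside 4.10 FPKM, Rpl10 at 2.08 beside 3.05 FPKM and Rpl28 at 3.16 beside 6.02 FPKM, while Rpl32 stood at 128 beside 2832 FPKM. These genes have many near-identical processed copies in the genome, and how shared reads were counted is not stated, so levels of single members are uncertain. The KSL table also divided short genes by shorter lengths, with a median ratio of implied lengths of 1.22 for this list.

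Mitochondrial ribosomal protein genes lay higher in control KSL cells in 47 of 76 members (61.8%, beside 18.1% of all ranked genes) and in granulocytes in 0. Oxidative phosphorylation genes met the rule in 8 of 74 toward KSL cells (10.8%, below the 18.1% of all ranked genes) and 1 toward granulocytes, with a median difference of −10.1 points. Proteasome genes met it in 10 of 47 toward KSL cells (21.3%, near the 18.1% of all ranked genes) and in 0 toward granulocytes. The 2 most abundant oxidative phosphorylation transcripts of control KSL cells, Atp5b and Atp5k, stood at 786 and 511 FPKM beside 113 and 57.7 FPKM.

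Glycolysis genes met the rule in 4 of 21 members toward granulocytes (19%, near the 17.3% of all ranked genes) and 2 toward KSL cells (9.52%, below 18.1%), with a median difference of 1.8 points. Pfkfb4, which makes the allosteric activator of phosphofructokinase, stood at 109 beside 1.64 FPKM, rank 356 against 9435, and the hexokinase gene Hk3 at 234 beside 28.8 FPKM. The phosphofructokinase genes Pfkm and Pfkl lay the other way, at 0.334 and 5.77 beside 22.1 and 44.2 FPKM. Of 10 glycogen genes, 5 lay at least 25 points higher in granulocytes, read against 17.3% of all ranked genes. Toward KSL cells 1 did, read against 18.1%: Pygb, at 1.95 beside 19.9 FPKM. By any margin, 7 members ranked higher in granulocytes and 3 in control KSL cells. The phosphorylase gene Pygl stood at 624 and 622 beside 20.7 FPKM, rank 46 against 3949, and Gys1 and Gbe1 lay the same way. The 7 pentose phosphate genes, which supply NADPH, had a median percentile of 98.7 beside 89.8, and Pgd ranked 64 against 1062.

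Antioxidant genes were mixed. Gsr, glutathione reductase, stood at 506 and 510 beside 30.9 FPKM, and Msra and Hmox1 also lay at least 25 points higher in granulocytes. Prdx3 and Prdx4, peroxiredoxins of mitochondria and endoplasmic reticulum, stood at 6.71 and 3.33 beside 91.5 and 39.1 FPKM. Of 22 members 3 lay higher in granulocytes (13.6%, near the 17.3% of all ranked genes) and 6 in control KSL cells (27.3%, beside 18.1%). Annexin genes lay higher in granulocytes in 3 of 8 ranked members (37.5%, beside the same 17.3%) and lower in 0. Anxa3 stood at 91.9 beside 3.57 FPKM and Anxa2 at 792 beside 21.3 FPKM.

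In the BCL2 family Mcl1, the short-lived survival protein of neutrophils, ranked 145 in granulocytes and 1228 in control KSL cells, at 245 and 249 beside 63.4 FPKM. Bcl2 stood at 0.677 beside 24.8 FPKM and the pro-apoptotic Bax at 8.42 beside 116 FPKM. Of 16 ranked members, 3 lay higher in granulocytes (18.8%, near the 17.3% of all ranked genes) and 2 in control KSL cells (12.5%, beside 18.1%). The 3 were the pro-apoptotic Bmf, Bcl2l11 and Pmaip1, at 4.2, 4.52 and 7.06 beside 0.735, 3.03 and 6.27 FPKM. Bad, Bbc3 and Bak1, also pro-apoptotic, did not reach 25 points either way. Of 11 DNA methylation genes, 4 lay higher in control KSL cells (36.4%, beside 18.1% of all ranked genes) and 1 in granulocytes. Dnmt3b, a de novo methyltransferase, stood at 0.209 and 0.219 beside 43.2 FPKM, while Tet2, which oxidises methylcytosine, ranked 44.2 points higher in granulocytes at 7.96 beside 2.78 FPKM. Of 19 polycomb genes, 4 lay each way (21.1%, near the 17.3% and 18.1% of all ranked genes), with the methyltransferase Ezh2 at 4.51 beside 66.0 FPKM and its homologue Ezh1 at 16.4 beside 8.09 FPKM.

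Interferon response and immediate early genes can also respond to handling, virus or culture, which differed between the samples. Of 30 interferon response genes, 13 lay at least 25 points higher in control KSL cells (43.3%, beside 18.1% of all ranked genes) and 1 in granulocytes. Their median difference was −18.1 points. Bst2, the tetherin that holds budding virus at the membrane, stood at 4.36 and 5.31 beside 564 FPKM, and at 792 and 633 FPKM in the knockdown libraries. The chemokine gene Cxcl10 stood at 1.13 and 0.894 beside 52.2 FPKM, and at 137 FPKM in the LncHSC-1 library. Ifitm6 was the exception, at 1551 and 1558 beside 1.87 FPKM, rank 17 against 9292. Of 19 ranked immediate early genes, 14 lay higher in granulocytes (73.7%, beside 17.3% of all ranked genes) and 1 in control KSL cells. Fos stood at 160 and 163 beside 4.08 FPKM and Zfp36, which destabilises cytokine mRNA, at 369 beside 11.7 FPKM. The part of sorting, 5-FU, virus and culture in these values cannot be told apart from cell type.

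**Figure D5:**
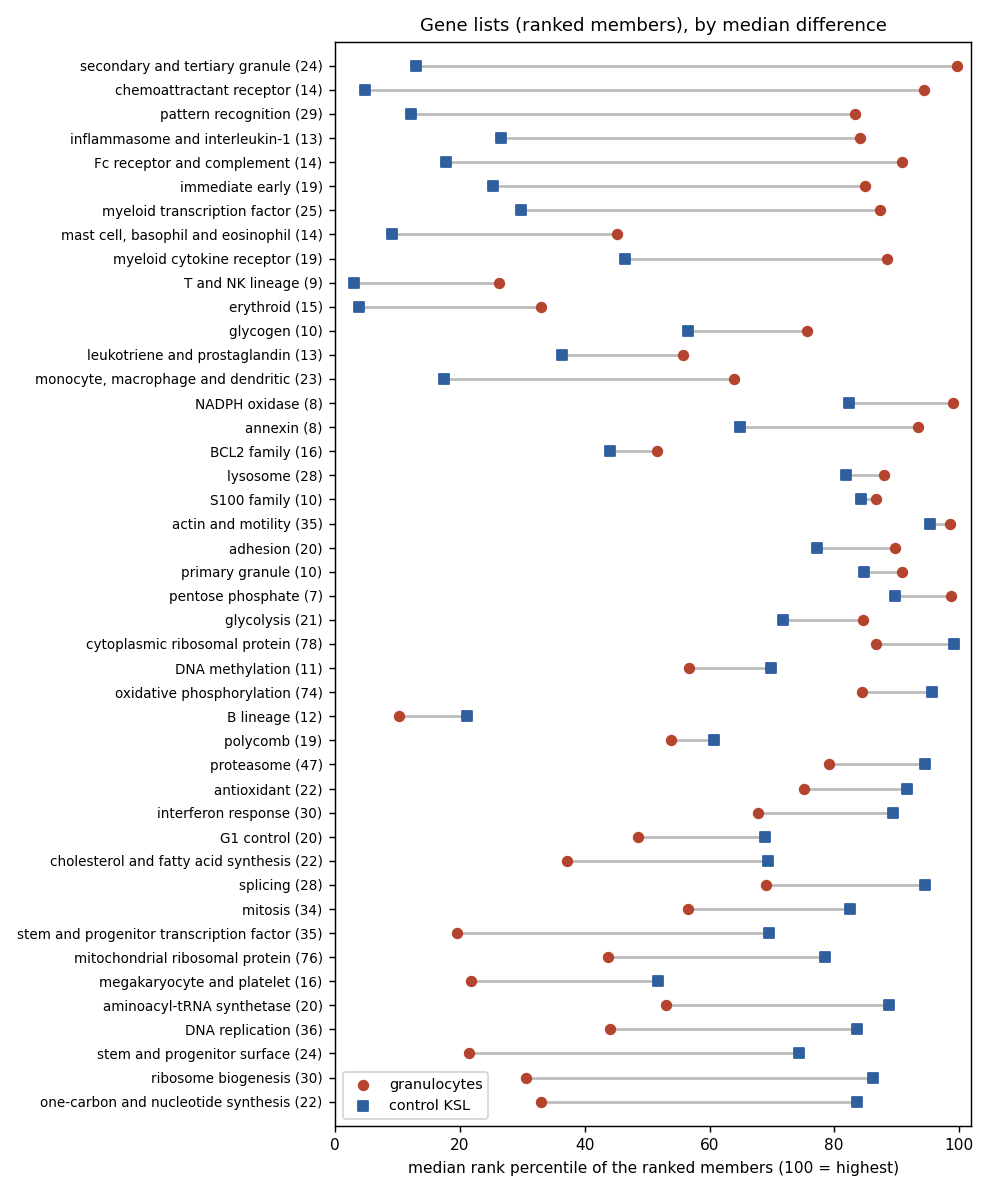
Median rank percentile (100 being the highest) of the ranked members of 44 gene lists in granulocytes (red circles) and control KSL cells (blue squares), ordered by median difference, with the number of ranked members after each name. The secondary and tertiary granule list has the widest difference toward granulocytes (medians 99.7 and 12.9) and the one-carbon and nucleotide synthesis list the widest toward KSL cells.

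Transcripts of genes listed for other blood lineages were present in both samples, and which cells they came from was not tested. In granulocytes the mast cell, basophil and eosinophil list lay at least 25 points higher in 8 of 14 ranked members and lower in 1. These 8 were 57.1% of the list, beside 17.3% of all ranked genes. Among them the merged Ear12 and Ear2 feature, Ear1, Epx and Prg3 were under 1 FPKM in control KSL cells. Those genes were therefore ranked through granulocytes alone. Cpa3 and Tpsb2 of the list were not called, at 3.29 and 0 beside 7.18 and 1.79 FPKM. The list included Hdc, the histamine-forming enzyme, at 242 and 241 FPKM, and Prg2, the eosinophil major basic protein, at 63.1 and 60.7 FPKM. The merged Ear12 and Ear2 feature stood at 55.3 FPKM. Prg2 stood at 5.37 FPKM in control KSL cells and 0.450 FPKM in the LncHSC-1 library. The list held 0.102% of summed FPKM in granulocytes, where Hdc was its highest member, and 0.0283% in control KSL cells. Monocyte, macrophage and dendritic genes lay higher in granulocytes in 10 of 23 ranked members (43.5%, beside the same 17.3%) and in control KSL cells in 1. By any margin, 17 members ranked higher in granulocytes and 6 in control KSL cells. F13a1 stood at 40.7 and Mpeg1 at 200 FPKM beside 1.39 and 17.7 FPKM, while Flt3 stood at 0.963 beside 24.4 FPKM. The list held 0.136% of summed FPKM in granulocytes and 0.0921% in control KSL cells. T and NK lineage genes were low in granulocytes, where the most abundant ranked one, Cd3d, stood at 6.26 and 6.85 FPKM. Of 22 listed, 13 were under the floor, and of the 9 ranked 4 lay higher in granulocytes and 1 in control KSL cells. Those 4 were under 1 FPKM in control KSL cells, so they were ranked through granulocytes alone. With a floor of 5 FPKM the median difference went from 23.2 to −6.2 points, over 3 genes. The part of these other cells in the granulocyte values was not tested, nor was that of immature or dividing cells.

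Erythroid and megakaryocyte genes were uneven, and of 15 ranked erythroid genes 5 lay higher in granulocytes and 3 in control KSL cells. The merged alpha-globin feature Hba-a1,Hba-a2 stood at 92.5 and 89.1 FPKM beside 0.695 FPKM, while the merged beta-globin feature Hbb-b1,Hbb-b2 stood at 54.8 beside 80.2 FPKM, rank 833 against 882. Each merges near-identical copies, and their shared reads make these levels uncertain. Car2, carbonic anhydrase 2, stood at 7.01 beside 238 FPKM. Of 16 ranked megakaryocyte and platelet genes, 9 lay higher in control KSL cells (56.2%, beside 18.1%) and 3 in granulocytes (18.8%, near 17.3%). Pf4, platelet factor 4, stood at 0.376 and 0.342 beside 356 FPKM, and Itga2b, the fibrinogen receptor subunit also found on stem cells, at 1.16 beside 114 FPKM. The KSL cells had been cultured with thrombopoietin, and the part of culture in this list cannot be told apart from cell type. B lineage genes met the rule in 3 of 12 ranked members toward KSL cells and 1 toward granulocytes, with 0.00213% of summed FPKM in granulocytes and 0.0237% in control KSL cells.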

How the data were processed

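PolyA RNA sequencing of 5 libraries was analysed. Per the submitters' processing notes the build was mm9 and DESeq was used; aligner, counter and annotation release were not given in the sources used here. FPKM values are the authors' deposited values and were ranked as they stand. The deposited KSL count columns were taken as signal, reads times a factor per library: 91.9% of control values of at most 20 reads lay within 0.1 read of a whole multiple of 1.08. The deposited granulocyte count columns were taken as a score of rounded, scaled reads: the value 8 occurs 0 times in replicate 1. Granulocyte FPKM equals that score per kilobase over 50 M reads. Estimated depths were 37.9 and 46.7 M reads for the granulocyte replicates and 21.0 M for control KSL, and 24.1 and 19.9 M for the knockdown libraries.

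Technical replicates were averaged and counted as 1 sample. Named genes with at least 1 FPKM in at least 1 of both profiles were ranked (percentile, ties sharing their mean rank). Predicted genes, microRNAs, clone names and unnamed models, 16819 features, were left out; 1925 of them reached 1 FPKM in granulocytes and 2409 in control KSL. With n = 1 per group no test was run. Calls used fixed rank differences. Motifs were searched in RefSeq promoters (GRCm38.p6), matched by symbol for 7925 of 10370 ranked genes; chromosome 18 was left out. Positions of genes (mm9) were copied from the granulocyte tables. Reads of single genes are estimates, and intervals cover counting error only.

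Named genes follow a rule: the 12 highest of each profile, the 12 widest differences each way, the first 10 of the top 500 of either profile that rank below 2000 in the other, up to 6 members and up to 3 exceptions of each of 44 lists, and Kit, Ly6a, Cd34, S100a8, S100a9, Ltf and the Ly6 genes. A few genes taken by this rule are not reported here. Other names were chosen after their values were seen: genes at the edges of the rule, single genes between KSL libraries, and some list members, among them low ribosomal protein genes, Cdkn1b, Ezh1 and the glycogen genes. The members and lists were chosen with earlier results of these data known. Alternatives covered the floor, the replicates, the KSL library, lengths, symbols and the size of the call. Python 3.11.15, numpy 2.4.6, pandas 2.3.3, scipy 1.17.1 and matplotlib 3.10.9 were used.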

Additional observations from a re-analysis of the deposited data

How the results depend on the processing

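The counts of genes at least 25 points apart and the genes shared by the top 500 stayed within 1.5 times their reported values in every alternative but 2. Without a floor the counts were 1145 toward granulocytes and 924 toward KSL cells, and at 33 points 1234 genes lay toward KSL cells. The rank correlation of 0.481 was 0.291 with a floor of 5 FPKM, 0.843 without a floor, 0.355 with the floor in both profiles, 0.489 and 0.481 with the LncHSC-1 and LncHSC-2 libraries as the KSL profile, 0.527 from the count columns, 0.476 for genes with lengths within 1.2-fold, and 0.453 with predicted symbols. In the same settings, where it moved, the share of the 100 highest granulocyte genes was 58.5% (floor of 5), 60.0% (floor in both), 33.1% (count columns), 38.2% (lengths within 1.2-fold) and 55.9% (predicted symbols). That of control KSL cells was 25.4%, 25% (no floor), 26.4%, 14.1%, 21.4% and 25.1%, and 25.3% and 26% in the knockdown libraries. Leaving out either granulocyte replicate gave 25.1% in both cases for the KSL share. With KSL counts over the granulocyte table's lengths, an alternative added after seeing the data, the correlation was 0.484 and the KSL share 22.9%.

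Of 44 lists, 17 had a median difference of at least 25 points either way. All 17 kept their sign in every alternative except the floor in both profiles, where 16 did: the megakaryocyte and platelet median became 0.6 over the 7 genes left. Of these 17, 8 stayed past 25 points without a floor, 14 with the floor in both profiles and 14 from the count columns. With the floor in both profiles 41 of the 44 lists kept their sign. The cause of these moves was not tested. No paired analysis was possible because each group is 1 biological sample and the groups share no replicate design. Depth limits KSL values of granulocyte genes, many of which rest on a few reads.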

Other observations

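Symbols with a shared stem were grouped after the values were seen, keeping stems with at least 10 ranked genes, and the shares below read against 17.3% of genes higher in granulocytes and 18.1% higher in control KSL cells. Genes of the Klf stem, zinc finger factors of which several restrain division, lay at least 25 points higher in granulocytes in 7 of 13 members and higher in control KSL cells in 0. Dennd genes, whose products activate Rab GTPases of vesicle traffic, did so in 6 of 12 members, and Atg genes of autophagy in 7 of 16, with 0 the other way in both. C-type lectin genes of the Clec stem did so in 12 of 17.

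Toward control KSL cells, nuclear pore genes of the Nup stem met the rule in 11 of 18 members, RNA polymerase subunits of the Polr stem in 14 of 28, mitochondrial import genes of the Timm stem in 7 of 11, and tRNA methyltransferase genes of the Trmt stem in 7 of 10, with 0 toward granulocytes in each. Snhg genes, long non-coding hosts of small nucleolar RNAs, met it in 6 of 10, with a median difference of −48.9 points.

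Symbols without a gene name were outside the ranking. Of 16819 such features, 811 reached 5 FPKM in granulocytes and 1188 in control KSL cells.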
